A study of Saccharomyces cerevisiae with 8 samples.

Results

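Transcription start sites (TSSs) that give 5′-extended transcript isoforms were examined in TIF-seq data of budding yeast, a method that reads the 5′ and the 3′ end of the same RNA molecule. The 8 libraries were summed, and both ends were placed in bins of 100 nt on each strand of the 16 chromosomes. In each of the 6056 3′ bins with at least 100 molecules, the 5′ bin with most molecules was taken as the main start. A 5′ bin at least 3 bins upstream of the main start that sent at least 20 molecules to the same 3′ bin was taken as an extended start. This gave 1298 extended starts among the 17466 pairs of a 5′ bin and a 3′ bin with at least 20 molecules (7.43%). They lay at 639 of the 6056 3′ bins (10.6%). Extended starts that lay within 3 bins of each other at both ends were joined into 611 loci, of which 313 held a single extended start. The summed molecules chose the extended starts, so their number, distance, and overall share are descriptions and were not tested.

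All cells were diploid yeast of the SK1 background (strain FW2795) with both copies of IME1 under a copper-inducible promoter (irt1::pCUP-3HA-IME1), both copies of NDT80 under a GAL promoter (ndt80::pGAL-NDT80), and a Gal4-estrogen receptor fusion (GAL4(848).ER) made from the GPD1 promoter. RNA of the pm pool came from 0 to 2 h in sporulation medium (SPO). That of the T1 pool came from 3 to 6 h, with 50 μM CuSO4 given at 2 h, and that of the T2 pool from 7 to 9 h, with 1 μM β-estradiol given at 6 h. The T3 pool covered 15 to 120 min after cells in meiotic prophase were moved to rich medium (YPD). The label of each sample reads as untreated, so the inducers are taken from the protocol of the time course, and the sources read do not say whether the pools held RNA of mock-treated cells. Each pool mixed RNA of several time points and was sequenced in 2 independent replicates, with 552357 to 1820826 yeast molecules per library (8552677 in all). Because IME1 and NDT80 were induced from foreign promoters, the timing of the pools was set by the inducers.

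In budding yeast, the transcription factor Ime1 starts the gametogenesis program, and Ndt80 later turns on the genes of the meiotic divisions and of spore formation. During this program some genes are transcribed from a promoter upstream of their usual one. The resulting extended isoform runs through the usual promoter, can carry upstream reading frames that hinder translation of the coding sequence, and at some genes represses the usual promoter, whereas at others both isoforms are made together. Whether an extended start rises alone, rises together with the main start, or rises as the main start falls is the question the comparisons of the pools address here.

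Positions are 1-based on the SK1 assembly used by the authors. Since it was used without an annotation, the loci carry numbers and coordinates in place of gene names. A distance is counted from the most frequent position of the extended start to that of the main start, and a span is the distance on the genome between the 2 ends of a molecule.

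The extended starts lay a median of 473.5 nt upstream of the main start, with a range from 207 to 1359 nt. Of the 1298, 340 lay 3 bins upstream, 273 lay 4 bins, 205 lay 5 bins, 169 lay 6 bins, and 311 lay 7 bins or more. Extended molecules had a median span of 1082 nt, and 813 of the extended starts gave a median span over 1000 nt. The main molecules at the same 3′ bins were short, with a median span of 547.5 nt over the 1298 members, against 861 nt over the main starts of all 6056 3′ bins. The rule itself makes the extended molecule the longer one, so the difference within a pair is no finding. Beside the 861 nt of all main starts, the extended molecules were somewhat longer and their partners shorter. Since the rule asks for a start at least 3 bins upstream of the main one, it can favour short partners. A 3′ bin with several members also counts several times in the median of 547.5 nt. For 229 members, at 79 3′ bins, the main molecules spanned less than 300 nt. The main start lay within 2 bins of the 3′ bin itself at 54 of the 639 3′ bins with members (8.45%) and at 235 of all 6056 (3.88%). At such 3′ bins the name "extended" says only that a start lay upstream of the most frequent one.

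**Figure D1:**
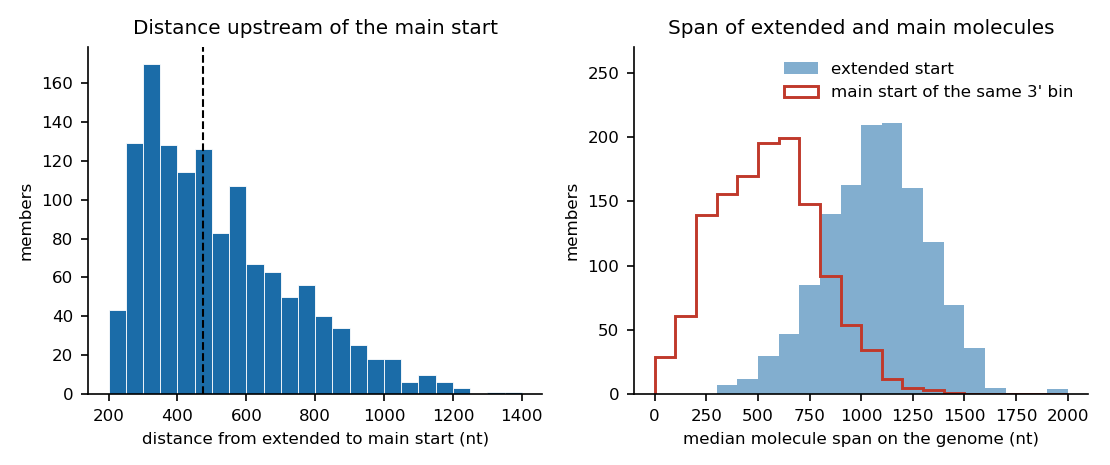
Left, histogram of the distance in nt from the extended to the main start for the 1298 members, with the median of 473.5 nt as a dashed line. Right, histogram of the median span in nt of the extended molecules (filled, median 1082 nt) and of the main molecules at the same 3′ bin (outline, median 547.5 nt); the main molecules lie largely below 1000 nt.

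Most extended starts were minor forms among the molecules read. The paper reports that shorter fragments were over-represented in its TIF-seq data, and extended molecules are the longer ones by the rule. The effect of this on the shares and on the choice of the main start was not tested. A member had a median of 34 molecules over the 8 libraries (20 to 2730), and it made up a median of 8.28% of the molecules of its 3′ bin. Extended molecules reached at least 50% of the main molecules for 412 members and at least 90% for 42. Close to the threshold, 90 members held exactly 20 molecules and 324 held 20 to 24. Outside it, 67 upstream pairs held 19 molecules, 499 held 15 to 19, and 514 pairs with at least 20 molecules lay 2 bins upstream. Among pairs at least 3 bins away from the main start, 23.3% of 5574 lay upstream and the rest downstream.

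Extended and main molecules ended at the same place. The median 3′ position of the extended molecules lay within 10 nt of that of the main molecules for 1200 members (92.4%), although the 3′ bin allowed more. For 1251 members, most molecules that began in the extended 5′ bin ended near this 3′ bin, so the upstream start made mainly the long isoform. In contrast, for 26 members at 17 loci most molecules from the extended 5′ bin ended before the main start. There the extended molecules were the minor product of an upstream transcript unit, with a median distance to the main start of 764.5 nt. The remaining 21 members had neither pattern. In 61 cases the extended 5′ bin was itself the main start of another 3′ bin.

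Extended starts had a lower median concentration than the main starts beside them, a comparison given without a test. The chance that 2 molecules of a start share the same 5′ position, which is the concentration, had a median of 4.57% over the members and of 7.55% over the main starts of the 639 3′ bins. It reached 10% for 310 members (23.9%) and for 233 of those main starts (36.5%). A total of 521 members had no neighbouring member bin, 276 lay in runs of 2 bins, and 501 lay in runs of 3 or more.

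Members were seen unevenly across the libraries. A total of 154 (11.9%) had at least 1 molecule in all 8 libraries, and 561 were seen in 5 or fewer. For 663 members at least 50% of the molecules came from a single library, which was T1 replicate 1 for 420 of them. This library held 21.3% of all molecules and 32.1% of the extended molecules, so it weighed heavily in the choice of members, and without it the rule gave 774. Without T1 replicate 1 and pm replicate 1 together, a setting chosen after seeing the data, it gave 716.

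At the 3′ bins with members, extended molecules made up 5.11% and 7.66% of the molecules in pm, 14.1% and 11.6% in T1, and 8.97% and 7.15% in T2, with 8.55% and 6.48% in T3. Both T1 replicates lay above the other 6 libraries, and the 3 other pools overlapped. The pool means were 6.38% ± 1.80 (SD, n = 2) in pm, 12.8% ± 1.76 in T1, 8.06% ± 1.29 in T2, and 7.51% ± 1.47 in T3. Since the members were chosen on the sum of all libraries, these shares are a description. Recovery of true 5′ ends also differed between libraries: the share of pGIBS-LYS molecules, a spike-in transcript of known sequence, that began within 5 nt of their most frequent 5′ end was 87.5% and 57.9% in pm, 43.2% and 57.5% in T1, and 72.1% and 60.0% in T2, with 79.7% and 73.1% in T3. It was lowest in T1 replicate 1, the library with the highest extended share, and highest in pm replicate 1, the one with the lowest. Its part in the pool differences was not tested.

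**Figure D2:**
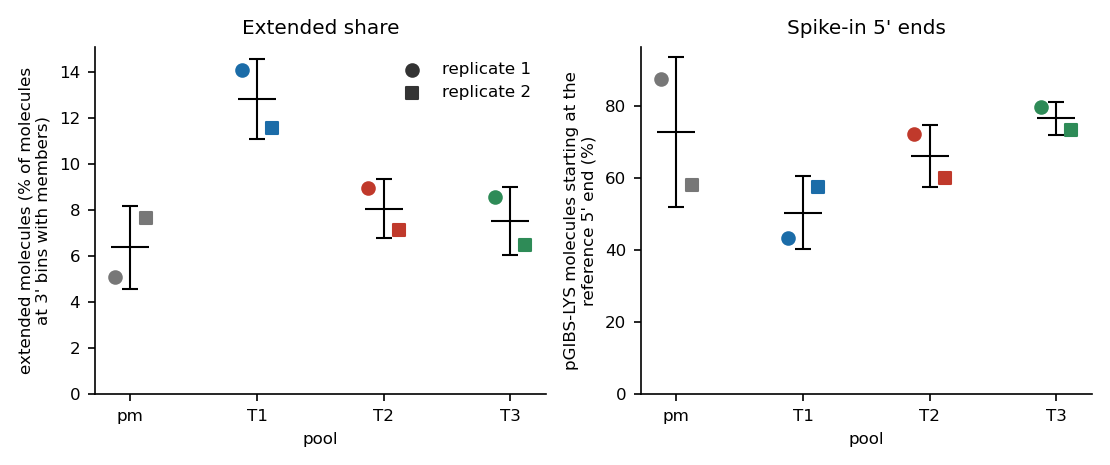
Left, extended molecules as a percentage of all molecules at the 639 3′ bins with members; right, percentage of pGIBS-LYS spike-in molecules that began at the reference 5′ end. Circles and squares are replicates 1 and 2 of each pool, and bars give the mean ± SD (n = 2); T1 has the highest extended share (14.1% and 11.6%), and pm replicate 1 has the lowest extended share (5.11%) and the highest spike-in share (87.5%).

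The extended start had more molecules than the main start in both replicates of a pool for 45 members in pm, 123 in T1, 37 in T2, and 37 in T3. When at least 3 extended molecules were asked for in each replicate, 17, 100, 26, and 14 members were left. In all, 212 members at 165 loci exceeded the main start in both replicates of at least 1 pool. The main start leads in the sum of all libraries by the rule, so these counts are a description and were not tested.

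T1 was compared with pm to examine entry into gametogenesis. The number of molecules of each pair was compared with limma voom over all 17466 pairs, and the ratio of extended to main molecules over the 11469 pairs that were not main starts. A pair was called where its p, adjusted after Benjamini-Hochberg over all pairs tested, was under 0.05 and its value moved 2-fold or more. Of the 1298 extended starts, 128 rose in number and 45 fell (13.3% called), against 17.8% of all pairs called. Of the other pairs that were not main starts, 15.2% within 2 bins of the main start and 13.8% at 3 or more bins downstream were called, close to the 13.3% of the extended starts. By direction, 9.86% rose against 9.21% of all pairs, and 3.47% fell against 8.58%. With scaling by the library total, 204 rose and 34 fell. The split turned without pm replicate 1, where 41 rose and 80 fell, and without pm replicate 1 and T1 replicate 1, where 28 rose and 54 fell. Without pm replicate 2 only 6 rose and 7 fell. The count of 173 in either direction went to 45 without T1 replicate 1 (28 rose and 17 fell), 91 without T1 replicate 2 (75 and 16), 295 and 304 without T2 replicate 1 or 2, and 107 and 108 without T3 replicate 1 or 2. The extended-to-main ratio rose for 62 members at 48 loci and fell for 12 at 11 loci (5.70% called), against 4.13% of all tested pairs. By direction, 4.78% of the extended starts rose in ratio against 1.63% of all tested pairs, and 0.924% fell against 2.5%. The median change of the ratio was 0.40 on the log2 scale over the members and -0.14 over all tested pairs. These shares and medians are a description, since the members were chosen on the sum of all libraries. T1 replicate 1 gave 32.1% of the extended molecules and so weighed heavily in that choice. The other classes of pairs differed among themselves. Within 2 bins of the main start 1.66% rose and 1.80% fell (median -0.01). At 3 or more bins downstream 0.631% rose and 3.95% fell (median -0.51).

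Among the 62 members whose ratio rose in T1, the extended start rose and the main start fell for 12. The extended start rose and the main start was not called for 19, the main start fell and the extended start was not called for 26, and neither was called for 5. Both starts rose for 49 further members and both fell for 28, with no ratio call among them. For 0 members did the extended start fall and the main start rise. Of the 62, 38 had a concentration of at least 10% and 11 had main molecules under 300 nt, and their median distance of 340.0 nt was below that of all members.

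These calls rested on few libraries. In each fit with libraries left out, here and in the 2 other comparisons, the 1298 members chosen on all 8 libraries were kept. The medians of such fits are thus not free of the library left out. Leaving out 1 library of either pool lowered the number of members with a changed ratio to 32 (pm replicate 1), 10 (pm replicate 2), 9 (T1 replicate 1), and 4 (T1 replicate 2), a fit of the 2 pools alone called 0 (256 at an unadjusted p under 0.05), and without pm replicate 1 and T1 replicate 1 the limma fit called 0 (187 at an unadjusted p under 0.05), with medians of 0.63 over the members and -0.51 over all tested pairs. Without T2 replicate 1, T2 replicate 2, T3 replicate 1, and T3 replicate 2, it called 40, 37, 55, and 57.

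**Figure D3:**
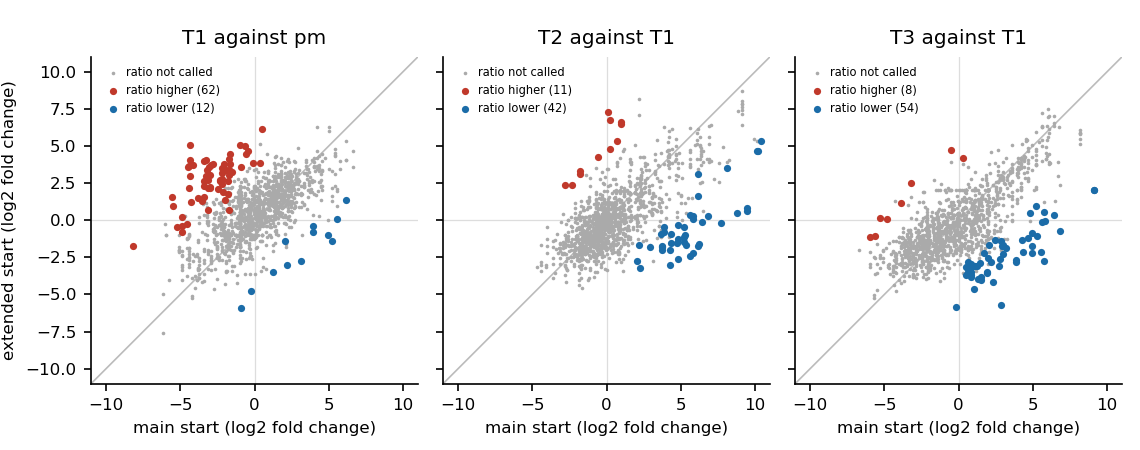
Change in the number of molecules of the extended start (y axis) against that of its main start (x axis), both as fitted log2 fold changes, for the 1298 members in each of the 3 comparisons. Red and blue points are members whose extended-to-main ratio rose or fell (62 and 12 in T1 against pm, 11 and 42 in T2 against T1, 8 and 54 in T3 against T1), grey points are those not called, and the diagonal marks equal change; most grey points lie along it.

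The loci below were chosen by a fixed rule on the size of the ratio change, on molecule number, on distance, and on excess over the main start. The 26 loci are given by number, and a change refers to the ratio of extended to main molecules. A fitted change depends on the 0.5 molecules added to each value where a start has few molecules in a pool, so molecules are given with it. For 13 of the 18 ratio changes named, the call was lost whichever of the 4 libraries compared was left out, and the direction was kept throughout.

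Locus 1 had the largest rise in T1. It lies on the - strand of chromosome 2, with its extended start at 356009, its main start at 355687, and its 3′ end at 354813. Its extended start gave 0 and 1 molecules in pm, 115 and 26 in T1, and 27 and 9 in T2, with 1 and 0 in T3. Its main start gave 2663 and 10216 molecules in pm, 1065 and 209 in T1, and 599 and 158 in T2, with 426 and 296 in T3. The extended start was thus seen almost only in T1 and T2, and the main start was far above it in every library. Over both replicates the extended share of extended and main molecules was 0.00776% in pm (1 of 12880, Clopper-Pearson 95% confidence interval 0.000197% to 0.0433%) and 9.96% in T1 (8.45% to 11.6%); such intervals cover counting error only. The fitted ratio change was 9.46 ± 0.67 (log2, SE, adjusted p = 0.00024, limma). Both parts changed, with the extended start at 5.06 (adjusted p = 0.0018) and the main start at -4.35 (adjusted p = 3.2e-05).

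Locus 4 showed a similar pattern at a lower level. It lies on the - strand of chromosome 13, with the extended start at 629992, the main start at 629625, and the 3′ end at 629056. Extended molecules numbered 0 and 0 in pm, 22 and 10 in T1, and 4 and 3 in T2, with 0 and 0 in T3, and main molecules 129 and 187, 35 and 24, 16 and 6, and 5 and 6. In pm, 0 of 316 molecules were extended, which allows a share of up to 0.949%, whereas the T1 share was 35.2%. Set against 3 extended molecules over the pm pool in place of 0, the ratio was 57.1-fold higher in T1, a value that leaves out counting error in T1. The fitted ratio change was 7.39 on the log2 scale (adjusted p = 0.0024, limma), and the main start itself changed by -3.40 (adjusted p = 0.0018).

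At locus 2 the main molecules were very short. On the + strand of chromosome 12, molecules that began at 630494 and at 631438 ended at 631490, so that the main span was 64.0 nt and the extended span 997.0 nt. The extended start gave 0 and 0 molecules in pm, 27 and 5 in T1, and 3 and 1 in T2, with 4 and 3 in T3, against 39 and 20, 5 and 1, 6 and 11, and 3 and 1 from the main start. Of the 720 molecules that began in the extended bin, 93.5% ended before the main start, so the long isoform was the minor product of an upstream unit. Set against 3 extended molecules over the pm pool in place of 0, the ratio was 105-fold higher in T1. This value leaves out counting error in T1, where the main start had 5 and 1 molecules. The fitted ratio change was 7.93 on the log2 scale (adjusted p = 0.004, limma).

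Locus 3, on the + strand of chromosome 9, was also fed by an upstream unit, since 90.0% of the 1480 molecules from its extended bin ended before the main start. Extended molecules from 66130 to the 3′ end at 67637 numbered 0 and 0 in pm, 17 and 17 in T1, and 30 and 2 in T2, with 0 and 0 in T3. The main start at 66585 had 2 and 2 molecules in pm, 0 and 0 in T1, and 78 and 7 in T2, with 0 and 1 in T3. In T1 all 34 molecules from either start were extended, and in T2 27.4% of 117 were. This locus was named for its rise in T1 (adjusted p = 0.0044, limma) and for the excess of the extended over the main start. No fold value against 3 molecules could be given for the rise, since the main start had no molecule in T1.

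The largest falls in T1 were those of locus 5 and locus 6. At locus 5, on the - strand of chromosome 12 (extended start at 15381, main start at 14551, 3′ end at 13790), the extended start gave 12 and 8 molecules in pm, 6 and 9 in T1, and 1 and 3 in T2, with 2 and 2 in T3. The main start gave 1 and 2 in pm, 161 and 142 in T1, and 33 and 47 in T2, with 23 and 12 in T3. Among molecules from either start that reached this 3′ bin, the extended ones were 87.0% of 23 in pm and 4.72% of 318 in T1. Of the 124 molecules that began in the extended bin, 62.1% ended before the main start and 34.7% near this 3′ bin. The long isoform was thus the minor product of an upstream unit here too. The ratio changed by -6.67 ± 0.86 (log2, SE, adjusted p = 0.0042, limma), with the main start at 5.25 (adjusted p = 0.00069) and the extended start not called (-1.39, adjusted p = 0.34).

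Locus 6, on the - strand of chromosome 7 (extended start at 474324, main start at 473993, 3′ end at 473503), had no extended molecule in any pm or T1 library. It met the rule only because the main start went from 0 and 0 molecules in pm to 39 and 25 in T1. Its fitted change of -6.00 is set by the added 0.5 molecules and describes the main start alone. In T2 the main start had 1551 and 1984 molecules and the extended start 38 and 8.

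T2 was compared with T1 to examine the stage after NDT80 induction. Of the 1298 extended starts, 123 rose in number and 38 fell (12.4% called, against 15.5% of all pairs). By direction, 9.48% rose against 13.5% of all pairs, and 2.93% fell against 2.09%. This split depended on the scaling of the libraries: 89 rose and 182 fell with scaling by the library total, and 99 rose and 111 fell with upper-quartile scaling. The count of 161 in either direction went to 64 without T1 replicate 1 (58 rose and 6 fell), 99 without T1 replicate 2 (78 and 21), and 266 without T2 replicate 2 (160 and 106), and without T2 replicate 1 it was 143 (88 and 55). Without T3 replicate 1 or 2, 15 fell in each case. The ratio, which does not depend on scaling, rose for 11 members at 8 loci and fell for 42 at 34 loci (4.08% called, against 2.1% of all tested pairs). By direction, 3.24% of the extended starts fell in ratio against 1.37% of all tested pairs, and 0.847% rose against 0.732%, again a description because of the choice of members. The median ratio change was -0.31 over the members and -0.01 over all tested pairs.

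A rise of the main start accompanied most of these falls. Of the 42 members, 35 had a main start that rose and an extended start that was not called, 4 had both rise, 2 had a main start that rose and an extended start that fell, and 1 had only a fall of the extended start. In 29 of the 42, the extended start had exceeded the main start in both T1 replicates, and in 0 did it do so in both T2 replicates. The main molecules of 18 of the 42 spanned less than 300 nt, so at these the T2 molecules were short ones that began near the 3′ end. Members with such short main molecules made up 229 of the 1298. The T2 libraries also held shorter molecules in general, with median spans of 863 and 772 nt in replicates 1 and 2, against 900 and 916 nt in T1. The part of this difference in the falls was not tested. Of the 11 members whose ratio rose, 9 had an extended start that rose and a main start that was not called, and 0 had short main molecules.

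Leaving out T1 replicate 1, T1 replicate 2, T2 replicate 1, or T2 replicate 2 left 0 ratio calls in each case (190, 164, 237, and 201 at an unadjusted p under 0.05, limma), and a fit of the 2 pools alone left 9. The median over the members was -0.47, -0.22, -0.66, and 0.03 in these 4 fits.

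Locus 7 had the largest rise in T2. It lies on the + strand of chromosome 9, with its extended start at 371215, its main start at 371570, and its 3′ end at 372326. The extended start gave 23 and 58 molecules in the T2 replicates and 0 in each of the other 6 libraries. The main start gave 67 and 31 in pm, 66 and 9 in T1, and 7 and 27 in T2, with 7 and 2 in T3. In T2, 70.4% of 115 molecules were extended, against 0 of 75 in T1 (interval 0% to 4.8%). Set against 3 extended molecules over the T1 pool in place of 0, the ratio was 59.6-fold higher in T2, a value that leaves out counting error in T2. The fitted ratio change was 7.10 on the log2 scale (adjusted p = 0.009, limma), while the main start was not called (0.11, adjusted p = 0.96).

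Locus 9, on the + strand of chromosome 4 (extended start at 1136923, main start at 1137456, 3′ end at 1137764), likewise gained an extended form in T2. Upstream molecules numbered 0 and 0 in pm, 1 and 0 in T1, and 76 and 18 in T2, with 0 and 0 in T3. Main molecules numbered 13 and 62 in pm, 50 and 49 in T1, and 59 and 30 in T2, with 3 and 1 in T3. The extended share was 1% in T1 (1 of 100, interval 0.0253% to 5.45%) and 51.4% in T2 (43.9% to 58.8%), and the ratio changed by 5.65 ± 0.94 (log2, SE, adjusted p = 0.015, limma).

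The 2 other rises were less clear. Locus 8, on the - strand of chromosome 7 (63734, 63087, and 62438 for extended start, main start, and 3′ end), had 128 and 3 extended molecules in the T2 replicates and 0 elsewhere, so its replicates differed far more than the depth did. Of the 4025 molecules from its extended bin, 91.5% ended before the main start. Locus 10, on the - strand of chromosome 2 (163469, 163064, and 162472), had 4 and 1 extended molecules in T1 and 8 and 4 in T2, and its main start went from 135 and 68 molecules to 8 and 4. Its ratio change of 5.19 (log2) was made up of the main start at -2.82 (adjusted p = 0.013, limma) and the extended start at 2.37, which was not called (adjusted p = 0.096).

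The largest falls in T2 were made by short molecules from starts near the 3′ end. At both loci T2 replicate 2, the library with the shortest median span (772 nt), gave more of them than T2 replicate 1. It did so from fewer molecules in all (775322 against 1668155), and the part of library length was not tested. At locus 11, on the - strand of chromosome 5, molecules began at 401450 or at 400287 and ended at 400163. The extended start, with a span of 1283.0 nt, gave 14 and 12 molecules in pm, 68 and 62 in T1, and 59 and 41 in T2, with 7 and 4 in T3. The main start, with a span of 110.0 nt, gave 4 and 7, 7 and 8, 1602 and 4488, and 17 and 11. The extended start was not called between T1 and T2 (0.79, adjusted p = 0.45), while the short molecules rose by 9.46 on the log2 scale (adjusted p = 1.4e-05, limma). The extended share went from 89.7% of 145 molecules to 1.62% of 6190.

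Locus 12, also on the - strand of chromosome 5 (extended start at 109777, main start at 109257, 3′ end at 109188), had the same arrangement, with main molecules of 70.0 nt. Its extended start gave 7 and 7 molecules in pm, 50 and 14 in T1, and 10 and 33 in T2, with 7 and 7 in T3, and its main start 1 and 0, 3 and 0, 136 and 743, and 2 and 0. Outside T2 the long form was the leading one, at 95.5% of 67 molecules in T1 and 87.5% of 16 in T3, against 4.66% of 922 in T2. The ratio changed by -8.35 ± 0.90 from T1 to T2 (log2, SE, adjusted p = 0.003, limma).

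**Figure D4:**
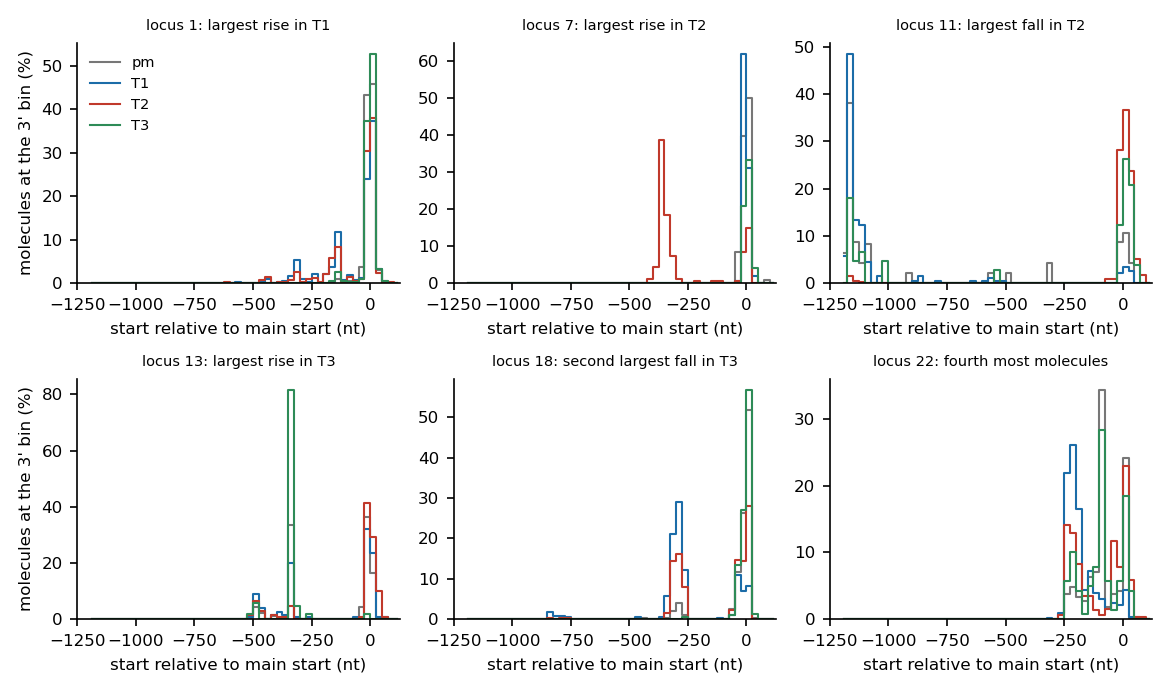
Start positions of the molecules that end in the 3′ bin of 6 named loci, in steps of 25 nt relative to the main start at 0 (negative is upstream), as a percentage of the molecules at that 3′ bin in each library, averaged over the 2 replicates of a pool. An upstream peak stands out in T2 alone at locus 7 and in T1 and T2 at locus 18. At locus 22 it stands out in T1 and, lower, in T2. At locus 13 it is higher in T3 than in the other pools. At locus 11 the upstream peak gives way to a start at 0 in T2. The y axes differ between panels.

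T3 was compared with T1 to examine return to growth. Of the 1298 extended starts, 120 rose in number and 130 fell (19.3% called, against 26.9% of all pairs). By direction, 9.24% rose against 13.8% of all pairs, and 10% fell against 13.1%. With scaling by the library total, 76 rose and 445 fell. The split depended on single libraries. Without T3 replicate 1, 64 rose and 7 fell, and without T3 replicate 2, 83 rose and 7 fell. Without T1 replicate 1, 92 rose and 49 fell, whereas without T1 replicate 2, 60 rose and 102 fell. Without T2 replicate 1 or 2, the count of 250 in either direction went to 403 (144 rose and 259 fell) and 412 (142 and 270). The ratio rose for 8 members at 8 loci and fell for 54 at 40 loci (4.78% called, against 3.45% of all tested pairs). By direction, 4.16% fell against 1.44% of all tested pairs, and 0.616% rose against 2.01%, again a description because of the choice of members. The median ratio change was -0.07 over the members and 0.54 over all tested pairs. The value over all pairs was raised by pairs at 3 or more bins downstream (median 1.01, 3.13% rose and 0.187% fell). Within 2 bins of the main start the median was 0.33 (1.51% rose and 1.75% fell). Over all tested pairs with at least 100 molecules it was 0.06. The T1 libraries also served in the other 2 comparisons, so the 3 sets of calls are not independent.

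Of the 54 members whose ratio fell in T3, 25 had a main start that rose and an extended start that was not called, 17 had an extended start that fell and a main start that was not called, 8 had both of these changes, and 4 had neither called. For 28 of the 54, the extended start had 0 molecules in both replicates of T3 or of T1. Among the 150 members with at least 100 molecules, the ratio fell for 21 (14%) and rose for 1 (0.667%), against 2.95% and 1.03% of the 2338 tested pairs with as many molecules. Where both starts were called for number in the same direction, 105 members rose together in T3 and 67 fell together, with no ratio call among them.

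Leaving out T1 replicate 1, T1 replicate 2, T3 replicate 1, or T3 replicate 2 left 0, 0, 1, and 0 ratio calls (202, 162, 165, and 144 at an unadjusted p under 0.05, limma), and a fit of the 2 pools alone left 0 (280). Without T2 replicate 1 and T2 replicate 2, the limma fit called 32 in each case. The median over the members lay between -0.16 and 0.00 in the 4 fits without a T1 or T3 library.

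Locus 18 was named for its fall in T3. It lies on the + strand of chromosome 11, with the extended start at 285435, the main start at 285737, and the 3′ end at 285787. The extended start gave 16 and 22 molecules in pm, 351 and 84 in T1, and 154 and 228 in T2, with 1 and 0 in T3. The main start gave 246 and 190, 163 and 12, 88 and 625, and 74 and 135. The extended form was the major one in T1 (71.3% of 610 molecules) and was 0.476% of the molecules in T3 (1 of 210, interval 0.0121% to 2.62%). In T2 it was 34.9% of 1095 molecules, but the replicates differed on which form led (63.6% and 26.7% extended). Its spans were 343.0 nt for the extended and 58.0 nt for the main molecules. From T1 to T3 the extended start fell by 5.68 on the log2 scale (adjusted p = 0.00031, limma), and the ratio changed by -8.59 ± 1.20 (adjusted p = 0.01). The ratio had risen by 5.26 from pm to T1 (adjusted p = 0.016). Locus 1, named for its rise in T1, also fell in ratio in T3 (-5.54 ± 0.69, adjusted p = 0.0092, limma).

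Locus 17, on the - strand of chromosome 2 (449594, 448733, and 448559), gave 0 and 0 extended molecules in pm, 35 and 4 in T1, and 57 and 27 in T2, with 0 and 0 in T3. Main molecules of 171.0 nt numbered 30 and 13, 16 and 1, 23 and 190, and 50 and 120. The extended form was therefore seen in the meiotic pools and in none of the pm and T3 libraries. Of the 313 molecules that began in its extended bin, 52.4% ended near this 3′ bin and 47.3% before the main start. With 3 extended molecules taken for the T3 pool in place of 0, its ratio was 130-fold lower in T3 than in T1, a value that leaves out counting error in T1. The fitted ratio change was -8.59 on the log2 scale (adjusted p = 0.017, limma).

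Locus 13 had the largest rise in T3. On the - strand of chromosome 15 (extended start at 424652, main start at 424315, 3′ end at 423726), the extended start gave 16 and 30 molecules in pm, 18 and 11 in T1, and 3 and 1 in T2, with 27 and 14 in T3. The main start gave 23 and 57, 36 and 32, 51 and 11, and 1 and 0. In T3 the longer isoform was 97.6% of 42 molecules, against 29.9% of 97 in T1. Both starts were called, with the extended start at 2.48 (adjusted p = 0.021) and the main start at -3.23 (adjusted p = 0.02), and the ratio changed by 5.71 ± 0.84 (adjusted p = 0.011, limma).

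The 3 other rises in T3 rested on few molecules. Locus 14, on the - strand of chromosome 11 (396223, 395951, and 395219), had 0 and 1 extended molecules in T1 and 4 and 6 in T3, against 17 and 16 and then 2 and 3 main molecules. Locus 15, on the + strand of chromosome 12 (567349, 567772, and 568576), had 4 and 1 extended and 0 and 2 main molecules in T3. At locus 16, on the - strand of chromosome 16 (828026, 827559, and 826904), T3 held no extended molecule and 1 main molecule, so its fitted rise of 4.84 is set by the added 0.5 molecules and describes the loss of the main start alone (126 and 70 molecules in T1).

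The 4 loci with most extended molecules had molecules in all 8 libraries. Locus 19, on the - strand of chromosome 7 (extended start at 154422, main start at 154054, 3′ end at 153603), gave 122 and 234 extended molecules in pm, 217 and 142 in T1, and 247 and 107 in T2, with 971 and 690 in T3. Its main start gave 384 and 657, 396 and 240, 261 and 171, and 1822 and 1721. Both starts rose in T3 by similar amounts, 4.23 (adjusted p = 3.6e-06) and 4.50 (adjusted p = 8.3e-07, limma), and the ratio was not called in any comparison. The extended share ranged from 24.1% to 48.6% over the 8 libraries.

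Locus 20, on the - strand of chromosome 4 (355778, 355351, and 354992), likewise rose in T3, with 77 and 346 extended molecules in pm, 112 and 65 in T1, and 153 and 36 in T2, with 548 and 357 in T3. The main start gave 31 and 307, 127 and 54, 105 and 20, and 918 and 684. Here the extended start was the more frequent one in both replicates of pm and of T2, at 55.6% and 60.2% of the molecules over the replicates. In T3 it was the less frequent, at 36.1%, although both starts rose (4.38 with adjusted p = 3.4e-05, and 5.22 with adjusted p = 1.7e-05, limma) and the ratio was not called (-0.84, adjusted p = 0.42).

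Locus 22, on the + strand of chromosome 2 (extended start at 363095, main start at 363333, 3′ end at 364222), had more extended than main molecules in T1 and fewer in the other pools. Its extended start gave 5 and 10 molecules in pm, 127 and 71 in T1, and 460 and 308 in T2, with 4 and 1 in T3. Its main start gave 74 and 59, 53 and 23, 1142 and 1236, and 20 and 7. The extended share was 10.1% in pm, 72.3% in T1, 24.4% in T2, and 15.6% in T3, and neither T1 replicate overlapped another library (70.6% and 75.5%). The ratio rose in T1 (4.48 ± 0.74, adjusted p = 0.0099) and fell both in T2 (-3.03 ± 0.56, adjusted p = 0.02) and in T3 (-3.66 ± 0.83, adjusted p = 0.04, limma). In T2 the extended start itself rose by a further 3.12 (adjusted p = 0.00028), while the main start rose by 6.15 (adjusted p = 2.8e-06). The fall of its share in T2 thus came with a larger rise of the main start. These shares leave out many molecules, since the 2 bins held 986 and 2614 of the 6682 molecules at this 3′ bin. The upstream peak ran on beyond the edge of the extended bin. From 225 to 200 and from 200 to 175 nt upstream, 226 and 142 molecules began in T1, and 686 and 440 in T2. A further start lay between them, seen as the middle peak in the plot of start positions, and is also left out. In pm, 148 molecules began 100 to 75 nt upstream of the main start, against 103 in the 25 nt from the main start on. In T3 these numbers were 28 and 18, so neither the extended nor the main start led in pm and T3.

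Locus 21, on the + strand of chromosome 11 (530747, 531888, and 531935), had main molecules of 48.0 nt and extended molecules of 1182.0 nt. Of the 1561 molecules from its extended bin, 72.7% ended near this 3′ bin and 27.3% before the main start. Its extended start gave 15 and 59 molecules in pm, 272 and 132 in T1, and 357 and 110 in T2, with 64 and 63 in T3, and its main start 201 and 279, 572 and 87, 396 and 823, and 538 and 1138. The ratio was not called in any comparison (adjusted p = 0.24, 0.73, and 0.095, limma), and the replicates of T1 (32.2% and 60.3%) and of T2 (47.4% and 11.8%) differed widely.

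The 3 loci with the longest distance were those where the main molecules were short. Locus 23, on the - strand of chromosome 9 (233923, 232564, and 232421), had a distance of 1359 nt and a main span of 144.0 nt. Its 28 extended molecules came from T1 (10 and 6) and T2 (4 and 8) alone. Locus 24, on the - strand of chromosome 7 (837090, 835765, and 835628), and locus 25, on the - strand of chromosome 4 (1026573, 1025331, and 1025143), had distances of 1325 and 1242 nt and main spans of 138.0 and 198.0 nt. None of the 3 passed the ratio test in any comparison.

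Locus 26, on the - strand of chromosome 13 (321757, 321039, and 320747), was named with locus 3 for the excess of the extended start. It gave 29 and 16 extended molecules in T1, 3 and 2 in T2, and 0 in each pm and T3 library, against 1 and 0 main molecules in T1 and 46 and 17 in T2. The long isoform was thus 97.8% of 46 molecules in T1 (88.5% to 99.9%) and 7.35% of 68 in T2 (2.43% to 16.3%). The ratio changed by -7.93 ± 1.00 from T1 to T2 (log2, SE, adjusted p = 0.0053, limma), the main start rose by 6.18 (adjusted p = 0.00025), and the extended start was not called (-1.76, adjusted p = 0.18).

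**Figure D5:**
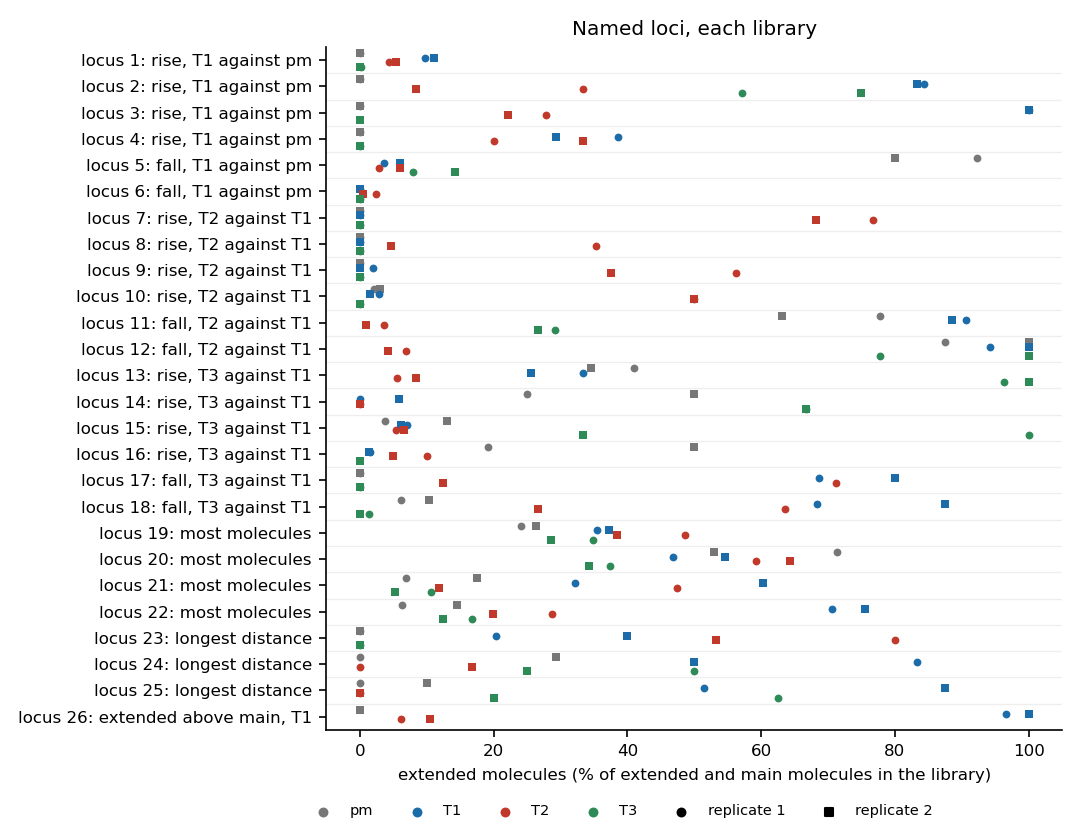
Extended molecules as a percentage of extended and main molecules at each of the 26 named loci, 1 point per library (colour gives the pool, circle and square replicates 1 and 2; libraries without molecules of either start are left out, and points at 0% overlap). Locus 19 lies between 24.1% and 48.6% in all libraries, locus 7 rises above 0% in T2 alone (76.7% and 68.2%), and loci 11 and 12 have their lowest shares in T2.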

How the data were processed

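The authors prepared TIF-seq libraries from pooled RNA, mapped the read pairs to the SK1 assembly and 3 spike-in sequences, kept pairs that mapped uniquely to 1 chromosome, and converted them with bedtools. The submitters' processing notes also name STAR 2.5.3a and cutadapt 1.16. The deposited files hold 1 line per molecule, with the positions of both reads, their strands, a mapping quality score of 255 as the authors' aligner left it, and an 8 nt UMI in the read name. They hold no value per feature, are not normalized, and replicates were not pooled. A 5′ end was taken from the first read and a 3′ end from the second.

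Molecules per pair of bins were compared with limma 3.58.1 (voom, all 8 libraries, pool as the only term, median-of-ratios scaling, 0.5 molecules added) in R 4.3.3. Ratios were differences of the voom log2 values of the extended and the main pair. The 2 replicates per pool allow no exact permutation p below 0.333. Named loci were, per comparison, the 4 largest rises and 2 largest falls of the ratio (called, mean of 10 or more molecules a library, same direction in all 4 pairs of libraries), the 4 with most molecules, the 3 longest, and the 2 where the extended start most exceeded the main one. Each locus was shown by its member with most molecules. Members, lists, and tests were chosen with earlier results of these data known. Alternatives comprised other scalings, filters, offsets, bins, a replicate block, UMI collapsing, and each library left out. The steps were tested on simulated data. Python 3.11.15, pandas 2.3.3, scipy 1.17.1, and matplotlib 3.10.9 were used.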

Additional observations from a re-analysis of the deposited data

How the results depend on the processing

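The number of extended starts depended most on the thresholds of the rule and on 1 library. It was 377 when at least 50 molecules were required and 685 when the start had to lie at least 5 bins upstream, and it stayed within 1.5 times of 1298 with bins shifted by 50 nt (1322), with molecules of the same 5′ end and UMI counted once (1231), and with molecules of at most 1500 nt (1273). Leaving out each library in turn gave 774 to 1220, and leaving out both pm replicate 1 and T1 replicate 1, chosen after seeing the data, gave 716. The median distance of 473.5 nt became 639 nt when starts at least 5 bins upstream were required, which follows from the rule, 453 nt with at least 50 molecules, 467 nt with molecules of at most 1500 nt, 473 nt with UMI collapsing, and 477.5 nt with shifted bins. It was 462 to 475.5 nt with each library left out in turn, and 470.5 nt without pm replicate 1 and T1 replicate 1. The extended share of each pool was recomputed with UMI collapsing and with molecules of at most 1500 nt, and moved by less than its SD over 2 replicates in both.

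For molecule number, the counts of called members (173 where T1 was set against pm, then 161 and 250 where T2 and T3 were set against T1) became 238, 271, and 521 with scaling by the library total, which moved the median log2 change of all pairs from 0.13, 0.13, and -0.41 to 0.58, -0.81, and -1.53. They became 48, 36, and 75 when only pairs of at least 80 molecules were tested, since fewer members were then tested, and 253, 135, and 481 in fits of the pools compared alone. Leaving out each library in turn gave 13 to 304, 64 to 266, and 71 to 412. Without pm replicate 1 and T1 replicate 1 they were 82, 82, and 161.

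For the ratio, the counts (74, 53, and 62) became 106, 106, and 131 with an offset of 2 molecules, 26, 18, and 29 for pairs of at least 80 molecules, and 0, 9, and 0 in fits of the pools compared alone. Leaving out each library in turn gave 4 to 57, 0 to 49, and 0 to 52, and leaving out both pm replicate 1 and T1 replicate 1 gave 0, 0, and 0 (187, 184, and 198 at an unadjusted p under 0.05, limma). A fit with the lone library left in a pool assumes that it varies like the other pools. Unweighted ratios and UMI collapsing kept each count within 1.5 times. The cause of these shifts was not tested.

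Between pools, the correlation of the replicate differences was from -0.26 to 0.11. The sources read do not say whether replicates with the same number came from the same culture, and these correlations cannot decide it. With a replicate block, 131, 143, and 214 members were called for number and 67, 54, and 54 for the ratio. With the T1 numbers exchanged in the block, chosen after seeing the data, 177, 173, and 254 were called for number and 108, 82, and 101 for the ratio. Of the 18 named ratio changes, 15 kept their call under the replicate block, and 90 of their 162 values under the alternatives did. At a median of 34 molecules over 8 libraries, a small change of a typical member was not detectable at this depth, so a member not called may still have changed.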

Other observations

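Extended starts were spread over the genome. They numbered 657 on the + strand and 641 on the - strand, and per 100 3′ bins of at least 100 molecules there were from 15.1 on chromosome 8 to 26.1 on chromosomes 1 and 2. Among the 310 members with a concentration of at least 10%, the ratio to the main start rose for 38 (12.3%) and fell for 4 (1.29%) in T1 against pm, and among the 988 others it rose for 24 (2.43%) and fell for 8 (0.81%), against 1.63% higher and 2.5% lower among all tested pairs. In T3 against T1 it rose for 3 and fell for 36 (11.6%) of the 310, and rose for 5 and fell for 18 (1.82%) of the 988, against 2.01% higher and 1.44% lower among all. The difference between these classes was not tested. Among the 26 members whose 5′ bin mostly gave molecules ending before the main start, the ratio rose for 4 and fell for 1 in T1 against pm (19.2% called, against 4.13% of all tested pairs), rose for 2 and fell for 3 in T2 against T1 (19.2% against 2.1%), and rose for 0 and fell for 3 in T3 against T1 (11.5% against 3.45%). Their median log2 changes were 0.92, -2.04, and -0.51.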
